A study of Arabidopsis thaliana with 6 samples.

Results

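PARP1 and PARP2 are poly(ADP-ribose) polymerases of Arabidopsis thaliana that act on broken DNA, and each was read by 1 of the 22746 probe sets that remain on the ATH1 array once its control probe sets are left out. PARP1 is locus AT2G31320 on chromosome 2, measured by probe set 264116_at, and PARP2 is locus AT4G02390 on chromosome 4, measured by probe set 255500_at. The pair was chosen by probe set, with the difference between the genotypes already known. That difference is therefore given below as a description, with no test. The platform annotation used here names 0 of these 2 probe sets, so the pairing of probe set and locus comes from the choice itself and was not checked against probe sequences. The symbols are those of RefSeq (TAIR10.1), which also lists ATPARP2 as a synonym of PARP1, and ATPARP1 and PARP1 as synonyms of PARP2, so the numbers are swapped in part of the literature.

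Transcript levels were measured in 3 samples of an atm mutant and 3 samples of the wild type, accession Col0, each hybridised to its own array. The mutant is called atm in the sample titles, ATM1 in the source names and AtATM3 mutant in the genotype field, so the allele is unsure. All 6 samples were whole plants at growth stage 1.04, raised on sterile medium with sucrose under short days. The title of the series speaks of transcripts induced by X-rays, but no label mentions irradiation, a dose or a time after treatment, and the 2 genotypes are the only groups. Nothing in the labels says that replicates came from separate cultures, so their spread may be technical. An ATH1 probe set is a group of short oligonucleotides for 1 transcript, and the values are MAS5 signal intensities on a linear scale.

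Poly(ADP-ribose) polymerases bind broken DNA and use NAD+ to build chains of ADP-ribose on themselves, on histones and on repair proteins. The chains draw repair factors to the break and are then removed by poly(ADP-ribose) glycohydrolases. PARP1 binds DNA through zinc fingers, as its animal namesake does, whereas plant PARP2 is shorter and has a different DNA-binding region at its amino end. Both end in the same kind of catalytic domain. In Arabidopsis both transcripts are known to accumulate after ionising radiation, and PARP2 is known to carry much of the polymerase activity after DNA damage. ATM is the protein kinase that starts the response to double-strand breaks, in plants largely through the transcription factor SOG1.

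The PARP2 probe set had signals of 32.1, 25.0 and 22.4 on atm replicates 1, 2 and 3, and of 536, 687 and 570 on wild type replicates 1, 2 and 3. All 3 atm values were far below all 3 wild type values, and the lowest wild type signal was 16.7 times the highest atm signal. The means were 26.5 ± 5.02 in atm and 598 ± 78.7 in the wild type (SD, n = 3 each). On the log2 scale the difference of atm minus wild type was -4.50 (SE 0.18), which makes the geometric mean 22.7-fold lower in atm. The size depends on how dim signals are treated: with the 40th percentile of each array added to its signals, PARP2 was 12.0-fold lower in atm.

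The PARP1 probe set had signals of 73.3, 56.7 and 74.0 on atm replicates 1, 2 and 3, and of 225, 241 and 216 on wild type replicates 1, 2 and 3. Its groups were also apart, with the lowest wild type signal 2.91 times the highest atm signal. The means were 68.0 ± 9.81 in atm and 227 ± 12.7 in the wild type (SD, n = 3 each). The log2 difference was -1.75 (SE 0.15), a geometric mean 3.36-fold lower in atm. In whole plants, fewer cells with a transcript and less of it per cell cannot be told apart.

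**Figure D1:**
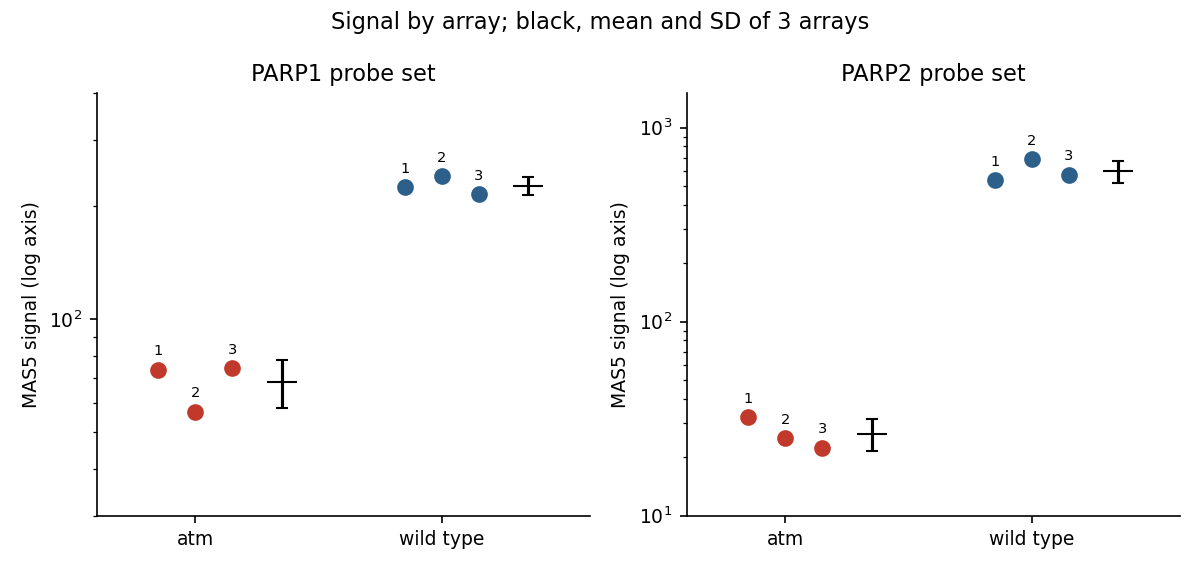
MAS5 signal (log axis, a scale of its own in each panel) of the PARP1 and PARP2 probe sets on the 3 atm arrays (left, red) and the 3 wild type arrays (right, blue), with replicate numbers above the points and the mean ± SD in black. PARP1 lies between 56.7 and 74.0 in atm and between 216 and 241 in the wild type, and PARP2 between 22.4 and 32.1 in atm and between 536 and 687 in the wild type.

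The paralogues differed in how far they were lower. Signals of different probe sets cannot be set against each other as levels, so the comparison was made between their changes, from the log2 difference of PARP2 minus PARP1 on each array with its wild type mean set to 0. This difference was -2.58, -2.57 and -3.11 on atm replicates 1, 2 and 3, against -0.14, 0.12 and 0.01 on wild type replicates 1, 2 and 3. All 3 atm arrays thus showed PARP2 reduced further than PARP1. The change of PARP2 was larger than that of PARP1 by -2.75 on the log2 scale (SE 0.19, n = 3 each), or 6.75-fold. This size depends on how dim signals are treated: with the 40th percentile of each array added to its signals, it was -2.15. As the pair was picked from this same contrast, no p is attached to that difference.

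Position within an array tells the same values in another way. The PARP2 signal stood at the 38.1st to 44.4th percentile of all probe sets on the atm arrays and at the 95.0th to 96.2nd on the wild type arrays. PARP1 stood at the 57.4th to 64.2nd percentile on the atm arrays and at the 85.9th to 87.3rd on the wild type arrays. On 2 of the 3 atm arrays PARP2 was below the 40th percentile, the level used to leave out dim probe sets, and it passed that filter with the help of the wild type arrays. PARP1 was above that percentile on all 6 arrays. MAS5 detection calls were not used here, so whether PARP2 was detected in atm plants is not known.

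The spread between replicates was near that of other probe sets, except for PARP1 in the wild type, where it was smaller than in most. The coefficient of variation of PARP1 was 14.4% in atm and 5.59% in the wild type, and that of PARP2 was 18.9% in atm and 13.2% in the wild type. On the log2 scale the SD of PARP1 was 0.22 in atm and 0.08 in the wild type, and that of PARP2 was 0.27 in atm and 0.19 in the wild type. The median SD of all tested probe sets was 0.20 in atm and 0.22 in the wild type. In atm the SD of PARP1 was larger than that of 54.8% of the tested probe sets and the SD of PARP2 larger than that of 65.1%. In the wild type these shares were 11.6% for PARP1 and 41.4% for PARP2.

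Within a genotype the paralogues did not order the arrays alike. In atm, PARP1 was lowest on replicate 2, while PARP2 was lowest on replicate 3 and highest on replicate 1. In the wild type both were highest on replicate 2, but PARP1 was lowest on replicate 3 and PARP2 on replicate 1. With 3 arrays a genotype, no relation between the genes within a genotype can be tested.

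Over the 13895 probe sets tested with limma, 31 passed an adjusted p under 0.05, or 0.223%, and all 31 were lower in atm. Both PARP probe sets were among them, as the choice of the pair from this contrast leads to, and in a fit blocked by replicate number PARP1 was not called. The count over all probe sets moved with the arrays used: it was 13 without wild type replicate 2 and also without wild type replicate 3, and 233, of which 76 were higher in atm, without wild type replicate 1 and atm replicate 2 together. Groups did not overlap, with atm lower, in 4.85% of the tested probe sets, and in either direction in 8.66%. By size of the log2 difference PARP2 had the 3rd largest fall of all tested probe sets and PARP1 the 29th. The median log2 change of all tested probe sets was 0.01, and the 1st and 99th percentiles were -0.79 and 0.59.

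**Figure D2:**
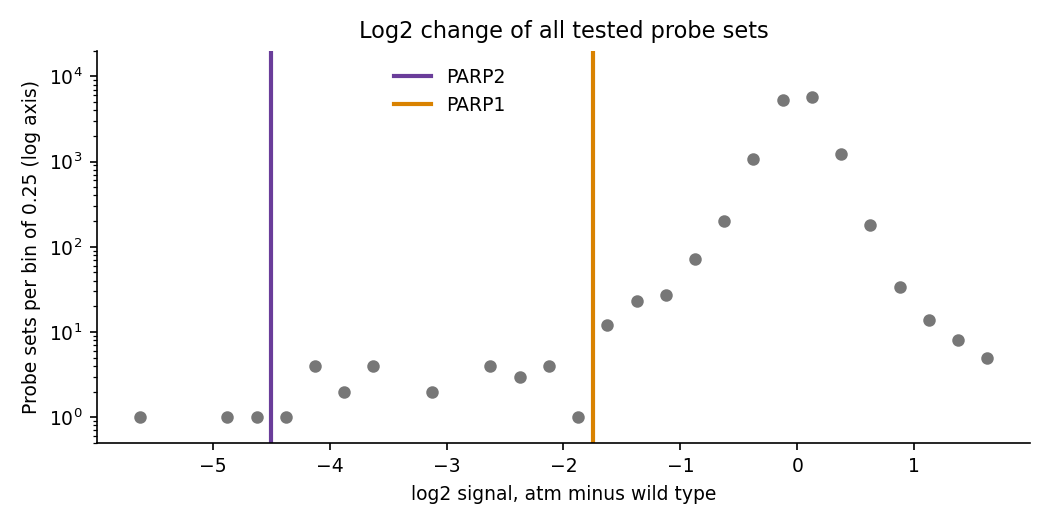
Number of probe sets (log axis) in each bin of 0.25 of the log2 change, atm minus wild type, over the 13895 tested probe sets (grey points, bins with at least 1), with lines at PARP2 (-4.50) and PARP1 (-1.75). Both lie in the thin lower tail, below the 1st percentile of -0.79.

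The arrays did not differ by genotype alone, so the pair was also read within subsets of arrays. Wild type replicate 1 and atm replicate 2 deviated from their group means together (Pearson r of 0.647 over the tested probe sets, which are no independent replicates). Between these 2 arrays alone, atm minus wild type was -4.42 for PARP2 and -1.99 for PARP1 on the log2 scale. On the other 4 arrays it was -4.54 for PARP2 and -1.63 for PARP1. From its group mean PARP1 deviated by -0.25 on atm replicate 2 and by -0.01 on wild type replicate 1, on the log2 scale. PARP2 deviated by -0.07 on atm replicate 2 and by -0.15 on wild type replicate 1.

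The 25S ribosomal RNA control was low on the same 2 arrays, at 2123 on atm replicate 2 and 836 on wild type replicate 1, against 4106 to 5400 on the other 4 arrays. The ratio of 3' to 5' signal of the GAPDH control was 1.405 to 1.559 on the atm arrays and 1.079 to 1.409 on the wild type arrays, overlapping only through wild type replicate 1. For the actin control this ratio was 9.10 to 9.94 on the atm arrays and 8.35 to 11.1 on the wild type arrays, so that the genotypes overlapped. The part of these differences between arrays in the values of the pair was not tested. Of the tissue markers, 3 of 21 were named on the array. The leaf gene RCA, which encodes Rubisco activase, had 5174 ± 347 in atm and 4946 ± 1080 in the wild type. The root gene PYK10, a beta-glucosidase, had 3344 ± 365 in atm and 3170 ± 186 in the wild type, and the root hair gene EXPA7, an expansin, had 28.3 ± 6.11 in atm and 32.5 ± 10.6 in the wild type (SD, n = 3 each). None of these 3 markers passed the limma test (adjusted p = 1), shoot and root markers were both present, and no flower or seed marker was named.

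The values of the pair barely depended on the processing, with 1 exception. Over 18 alternatives the log2 change of PARP2 lay between -4.65 and -3.58 and that of PARP1 between -1.82 and -1.44. The smallest change of either gene came from adding the 40th percentile of the array to every signal, which shrinks differences of dim probe sets. Under that setting PARP2 had -3.58 (SE 0.14) and PARP1 -1.44 (SE 0.12), and the difference between their changes was -2.15 on the log2 scale. PARP2 was the more reduced of the pair in all 18.

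**Figure D3:**
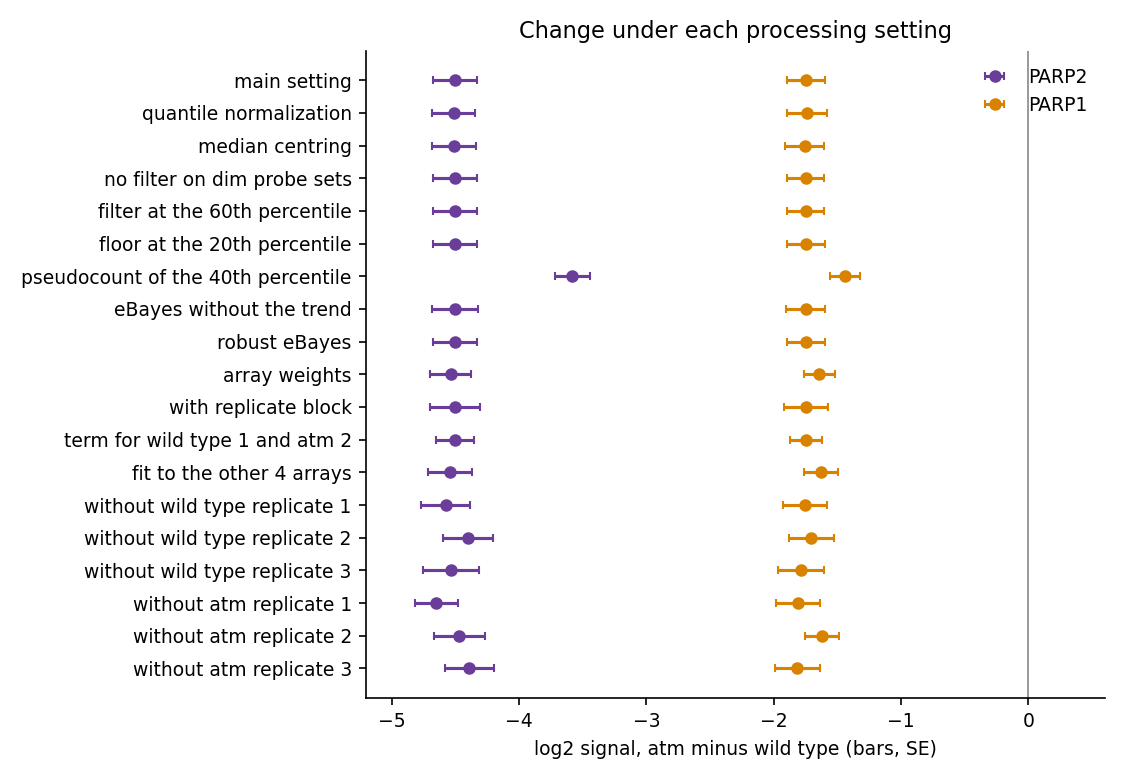
Log2 change of PARP2 (purple) and PARP1 (orange), atm minus wild type, with its SE, in the main setting and under 18 alternatives, 1 per row. The points of PARP2 lie between -4.65 and -3.58 and those of PARP1 between -1.82 and -1.44, and the pseudocount setting stands apart for both.

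To find which named genes behaved most like each paralogue, the log2 signals of every tested probe set were centred on their own mean over the 6 arrays. The Euclidean distance to the PARP gene was then taken, in log2 units, over the 7454 tested probe sets with 1 named gene. The genotype difference dominates such profiles, so the nearest genes are those with a change of like size, and they are given as a description. For PARP2, whose own centred profile has a length of 5.53, the 5 nearest were AT1G59660, AT3G42860, AT2G45460, AT5G23910 and AT5G48020, but their order depends on very low signals. AT1G59660 had signals of 3.98, 1.98 and 2.32 on atm replicates 1, 2 and 3, and of 44.8, 46.5 and 54.1 on wild type replicates 1, 2 and 3. The distance to PARP2 was 0.688 for AT1G59660, 1.15 for AT3G42860, 1.19 for AT2G45460, 2.33 for AT5G23910 and 2.49 for AT5G48020. Their log2 changes were -4.20 for AT1G59660, -4.20 for AT3G42860, -3.61 for AT2G45460, -2.70 for AT5G23910 and -2.52 for AT5G48020. AT1G59660, AT3G42860 and AT5G23910 were below the 40th percentile on every atm array. They passed the filter for dim probe sets only through the wild type arrays. With the 40th percentile of each array added to its signals, their log2 changes were -1.39, -1.50 and -1.29. AT1G59660 and AT3G42860 lay below the 20th percentile on every atm array. With all values raised to that percentile, a setting added after seeing the data, the same 5 genes were nearest, but AT2G45460 came first at 1.19, followed by AT3G42860 at 2.10 and AT1G59660 at 2.31. The log2 change was then -2.84 for AT3G42860 and -2.65 for AT1G59660. Among all tested probe sets 16 were closer to PARP2 than the fifth named gene, and 12 of the 16 were unnamed here.

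For PARP1, with a profile length of 2.17, the nearest named gene was ATMND1, known for its part in meiotic recombination, at a distance of 0.552. ATMND1 had signals of 16.9, 8.65 and 11.0 on atm replicates 1, 2 and 3, and of 33.4, 40.2 and 32.9 on wild type replicates 1, 2 and 3. Like PARP1, it was lowest on atm replicate 2 and highest on wild type replicate 2, but it was chosen for nearness over these same arrays. Its atm signals were all below the 40th percentile, so it passed the filter for dim probe sets only through the wild type arrays. AT1G23710 followed at 0.577, AT1G80850 at 0.619, AT3G14560 at 0.682 and AT4G25580 at 0.741, genes known here by locus code only. Their log2 changes ran from -2.07 for AT4G25580 to -1.40 for AT1G80850. Of the genes nearest to PARP1, limma did not call ATMND1 (adjusted p = 0.388) or AT1G80850 (adjusted p = 0.1). It called AT1G23710, AT3G14560 and AT4G25580, which were chosen here for a change like that of PARP1. AT4G25580 was also below the 40th percentile on every atm array. The lists of 5 named genes for PARP1 and for PARP2 had no gene in common, which the distances fix in advance. Lists that reach out to 0.741 and to 2.49 cannot share a gene when the paralogues are 3.41 apart. The paralogues were 3.41 apart from each other. By that distance PARP1 was the 28th nearest of 13894 probe sets to PARP2, and PARP2 the 13753rd nearest to PARP1. These ranks follow from the sizes of the changes. A probe set with no change at all lies 2.17 from PARP1, nearer than PARP2 does. The ranks therefore do not show that the paralogues differ in anything but the size of their change.

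**Figure D4:**
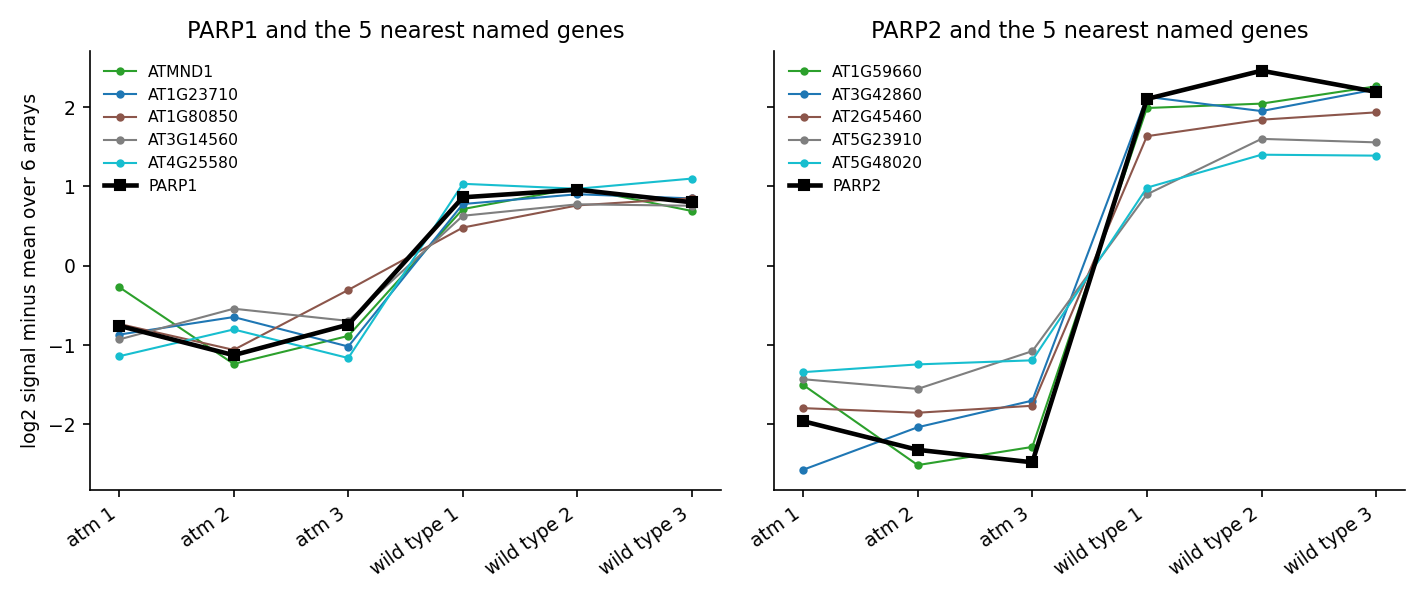
Log2 signal minus its mean over the 6 arrays (y axis) for PARP1 (left) and PARP2 (right) in black and their 5 nearest named genes in colour, on the 3 atm and then the 3 wild type arrays; lines only join the points of a gene. Each gene is low on the atm and high on the wild type arrays, with log2 changes from -2.07 to -1.40 for the genes nearest to PARP1 and from -4.20 to -2.52 for those nearest to PARP2.

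Genes of the PARP family, of ADP-ribose and NAD metabolism, of DNA repair and of the ATM response were taken from 6 lists. The lists held 82 loci, 80 without the pair itself, and whether these genes act with PARP1 or PARP2 was not tested. Of the 80, 16 were named on the array and 12 were tested, and limma called 0 of the 12 over all probe sets, against a background of 0.223%. At an unadjusted p under 0.05 there was 1 of 12, ATMND1, against 3.36% of all tested probe sets. ATMND1 was below the 40th percentile on every atm array, so it passed the filter for dim probe sets only through the wild type arrays. The median log2 change of the 12 was 0.00, with 5 of 12 below 0, against 0.01 over all tested probe sets. Most loci of the lists had no named probe set, so these counts say nothing about them. The PARP family list holds 7 loci beside the pair, PARP3 and the RCD1 and SRO genes, and 0 of the 7 were named.

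Chains of ADP-ribose are taken apart by glycohydrolases, and free ADP-ribose is handled by nudix hydrolases. Of 9 loci in the list for the removal of poly(ADP-ribose) and ADP-ribose 2 were named, and neither passed the test. Both are known here by locus code only, so their values are no reading of the glycohydrolases or nudix hydrolases. AT1G69340 had 227 ± 13.2 in atm and 227 ± 13.6 in the wild type, with a log2 change of 0.00, SE 0.12 and a limma adjusted p of 1. AT2G40600 had 171 ± 3.60 in atm and 163 ± 15.0 in the wild type (SD, n = 3 each), and its log2 change was 0.07 (SE 0.12). Both had overlapping groups.

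NAD+, the substrate of the polymerases, is made through steps that include quinolinate phosphoribosyltransferase (QPT) and nicotinate mononucleotide adenylyltransferase (NMNAT). Of the 13 loci for NAD synthesis and salvage 3 were tested and 0 passed. QPT had 152 ± 33.4 in atm and 171 ± 25.9 in the wild type, with a log2 change of -0.19, SE 0.20 and a limma adjusted p of 1. NMNAT had 26.2 ± 3.63 in atm and 27.1 ± 9.99 in the wild type, a log2 change of 0.00 (SE 0.32). In AT1G55090 the 3 atm values, 95.9 to 103, were below the 3 wild type values, 106 to 116, but its log2 change of -0.17 (SE 0.12, limma adjusted p = 1) did not pass.

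In base excision and single-strand break repair, PARP proteins are known from animals to recruit factors to nicked DNA. Of 20 loci 8 were named and 5 tested, with log2 changes from -0.15 to 0.19, and 0 passed. ATNTH1, an endonuclease III-like glycosylase, had 80.9 ± 11.3 in atm and 71.3 ± 11.2 in the wild type, with a log2 change of 0.19, SE 0.18 and a limma adjusted p of 1. DME, the DNA glycosylase DEMETER that removes methylated cytosine, had 3 probe sets. The brightest gave a log2 change of -0.15 (SE 0.15), and the other two gave 0.05 and -0.46, none of them past the threshold. AT3G14890 had a log2 change of 0.18 (SE 0.22), AT3G12710 0.14 (SE 0.18) and AT5G26680 0.14 (SE 0.18). The aprataxin-like APTX, the uracil glycosylase UNG and AT3G48425 were too dim to be tested.

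End joining was covered by 1 tested gene of 9 loci, since AT4G32700, the other one named, was too dim in both of its probe sets. ATLIG4, which encodes the DNA ligase of non-homologous end joining, had signals of 53.5, 31.6 and 33.4 on atm replicates 1, 2 and 3, and of 58.1, 46.6 and 61.2 on wild type replicates 1, 2 and 3. Its groups overlapped through atm replicate 1, and its log2 change of -0.52 (SE 0.25, limma adjusted p = 1) did not pass. Of the 22 loci for the ATM and SOG1 response 1 was named, ATMND1, with 12.2 ± 4.26 in atm and 35.5 ± 4.09 in the wild type (SD, n = 3 each). The log2 change of ATMND1 was -1.59 (SE 0.35, limma adjusted p = 0.388), and it passed under 0 of 17 alternatives that tested it. As its atm signals were all below the filter level, it was tested only because of the wild type arrays. ATM itself had no named probe set, so the genotype could not be checked at its own transcript.

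**Figure D5:**
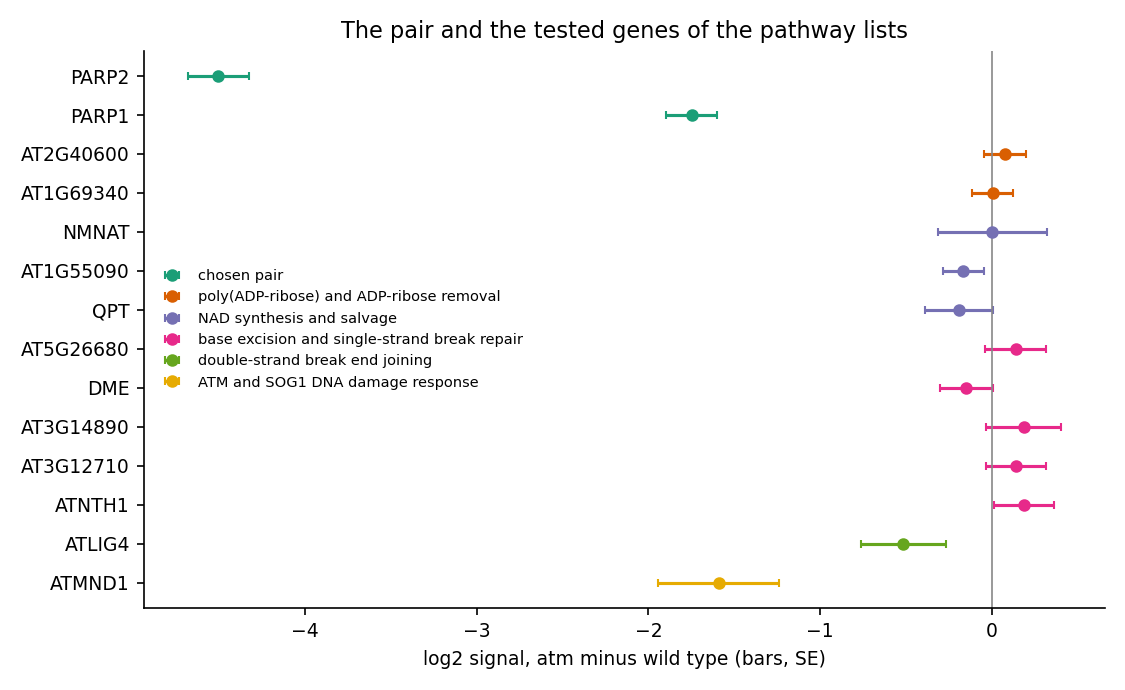
Log2 change, atm minus wild type, with its SE, for PARP2, PARP1 and the 12 tested genes of the pathway lists, coloured by list. PARP2 stands at -4.50, PARP1 at -1.75 and ATMND1 at -1.59, and the other 11 genes lie between -0.52 and 0.19.

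The chromosomal surroundings of the pair were read in the same fit, over the 5 protein-coding loci on each side in RefSeq order, a choice made after the values of the pair were known. Around PARP1 3 of 10 neighbours were named and 2 tested. INH3, known as a protein phosphatase inhibitor, differed by 0.18 on the log2 scale (SE 0.26, limma adjusted p = 1), and GLX2-5, of the glyoxalase II family, 0.02 (SE 0.12). The dim AT2G31290, which was not tested, had 22.6, 13.6 and 18.9 on atm replicates 1, 2 and 3, and 25.2, 25.7 and 30.7 on wild type replicates 1, 2 and 3, so that its groups did not overlap.

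Around PARP2 5 of 10 neighbours were named and 4 tested, and 0 were called. The next protein-coding locus after PARP2, AT4G02400, had signals of 47.8, 31.3 and 43.8 on atm replicates 1, 2 and 3, and of 67.8, 68.7 and 73.3 on wild type replicates 1, 2 and 3. All of its atm values were below its wild type values, which holds in 4.85% of tested probe sets. Its log2 change was -0.79 (SE 0.20), with a limma adjusted p of 0.585, and it passed under 0 of 18 alternatives, where the adjusted p ranged from 0.0674 to 1. SEC15B, a subunit of the exocyst, had a log2 change of 0.33 (SE 0.16), AT4G02370 0.07 (SE 0.20) and AT4G02340 0.01 (SE 0.17), each with limma adjusted p = 1.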

How the data were processed

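The deposited value of each probe set on each array is a signal intensity that the authors computed with MAS5 (GCOS software), according to the labels. Neither a scaling target nor detection calls or filters were given in the sources used here. After 2% of the probe sets was trimmed at both ends, every array had a mean of about 99. One scaling factor for a whole array does not align the shapes of the distributions, and log values of dim probe sets are noisy. Arrays have no read depth, and their number limits the precision.

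Of 22810 probe sets 64 controls were left out. The 13895 that exceeded the 40th percentile on 3 or more arrays were tested on log2 intensity with limma 3.58.1 in R 4.3.3 (eBayes with trend, no block, two-sided, Benjamini-Hochberg over all tested, adjusted p under 0.05). The script was tested on simulated data. The alternatives kept these probe sets unless the filter was what changed.

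Probe sets were named through the platform annotation and RefSeq TAIR10.1: 13513 had 1 gene, 503 several and 8730 were unnamed here. The brightest probe set stood for a gene with more than 1. The text names the pair, the 5 nearest named genes of each by distance, up to 3 tested members of each list with the smallest p, further members of short lists, and chromosomal neighbours. The pair, the lists and the alternatives were chosen with earlier results of these data known. The deviations of same-numbered arrays from their group means had r of -0.461, -0.46 and 0.379. Deviations cancel within a group, and wild type replicate 1 and atm replicate 2 deviated together. These r therefore cannot show whether the numbers pair the arrays, and the main fit used no block. Probe, promoter and protein sequences were not used here.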

Additional observations from a re-analysis of the deposited data

How the results depend on the processing

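With the 40th percentile of the array as a pseudocount the log2 change was -3.58 for PARP2 and -1.44 for PARP1, and their difference -2.15, all still below 0. Each of these 3 values moved by less than 1 SD of its replicates under the other 17 alternatives. Without 1 array at a time they ranged from -4.65 to -4.39, from -1.82 to -1.62 and from -2.85 to -2.58. With the replicate number as a block 11 probe sets were called, all lower, and 1 of the pair, PARP2; both were called under the other 17 alternatives. Over all tested probe sets array weights gave 73 calls (68 lower), a covariate marking wild type replicate 1 with atm replicate 2 gave 108 (92 lower), and the other 4 arrays alone gave 233 (157 lower). Leaving out 1 array gave 13 to 36, with 13 both without wild type replicate 2 and without wild type replicate 3. The cause of these differences in count was not tested. The tested genes of the pathway lists had 0 calls under all 18 alternatives. Dim probe sets limit what can be said of PARP2 in atm, where its signal was 0.907 to 1.23 times the 40th percentile of the array.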
